A study of Mus musculus with 2 samples.

Results

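The miRNA genes Mir199a-1, Mir199a-2, Mir199b, Mir214 and Mir140, known from mesenchymal tissue, were examined in the embryonic mouse heart. They were taken by symbol, 5 of the 1973 miRNA genes counted, by a rule of names, with earlier results of these data known. Whole hearts of strain B6NCrl at embryonic day 15.5 were pooled, 78 embryos for replicate 1 and 62 for replicate 2, with both sexes in each pool, and total RNA was sequenced for small RNAs. All samples belong to this 1 group, healthy and with no treatment named in the labels. Replicates 1 and 2 held 3439539 and 5833156 counts on the strand of a miRNA gene. A level is given as counts per 1000000 such counts (CPM), and ± is the SD over both libraries (n = 2). The SD covers pools and not single embryos.

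A miRNA gene is transcribed as a hairpin precursor, from which a short strand of either arm can be loaded into an Argonaute protein. The loaded strand pairs with target mRNAs mainly through its seed, bases 2 to 8, and lowers their output. Mir199a-2 and Mir214 are processed from Dnm3os, a noncoding RNA of mesenchyme that runs opposite to the dynamin gene Dnm3 and is under the control of Twist1. miR-199a-3p is known for promoting the proliferation of heart muscle cells, and miR-214 for limiting calcium overload in the injured heart. Mir140 is best known from cartilage, where it is expressed under the chondrocyte factor Sox9.

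The listed mature strands are shown because hairpins that hold the same strand can share reads. RefSeq (GRCm38.p6) listed a hairpin for 5 of 5 genes and 8 mature entries, which hold 5 distinct sequences. miR-199b-5p and miR-140-5p were not used here. The listed strands are printed 5′ to 3′ with the seed in capitals.
miR-199a-5p: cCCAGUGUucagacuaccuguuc
miR-199a-3p and miR-199b-3p: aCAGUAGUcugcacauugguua
miR-214-5p: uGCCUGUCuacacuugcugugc
miR-214-3p: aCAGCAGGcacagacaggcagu
miR-140-3p: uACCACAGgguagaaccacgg

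The 5 distinct listed sequences had 5 different seeds. Among all 1738 listed mature entries, the seed of miR-214-3p was also that of miR-761, and the seed of miR-140-3p was also that of miR-497b. Their genes gave almost no counts here, with 0 and 0 counts for Mir761 and 1 and 0 for Mir497b in replicates 1 and 2. Mir214 and Mir140 thus carried nearly all counts of hairpins whose listed strands hold these 2 seeds.

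The Mir199 genes differ in how much of their sequence can be told apart. A read that matches several places is in no gene count, and such reads made up 33.0% and 30.1% of all reads in replicates 1 and 2. The 3 hairpins are printed with the bases that lie in a window of 20 bases held also by another annotated miRNA hairpin in capitals.
Mir199a-1: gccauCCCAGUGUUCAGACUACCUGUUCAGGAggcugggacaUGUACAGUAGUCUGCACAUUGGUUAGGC
Mir199a-2: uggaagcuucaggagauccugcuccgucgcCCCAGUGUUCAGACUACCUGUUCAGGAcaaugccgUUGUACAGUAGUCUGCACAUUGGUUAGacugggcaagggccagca
Mir199b: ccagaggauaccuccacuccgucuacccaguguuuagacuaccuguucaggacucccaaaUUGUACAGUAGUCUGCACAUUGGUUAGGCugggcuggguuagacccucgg

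Both listed arms of the Mir199a genes lay wholly in capitals. The 3p arm was whole in all 3 hairpins, and the 5p arm of Mir199a-1 was whole in Mir199a-2. Mir199b shared the 3p side, but no window of its 5p side lay in another hairpin. Of the windows of 20 bases, 34 of 51 were held by no other hairpin in Mir199a-1, 75 of 91 in Mir199a-2 and 81 of 91 in Mir199b. In the Mir199a hairpins these windows reached outside the listed arms. Mir214 and Mir140 shared none of their 91 and 51 windows. A stretch of 20 bases shared with another hairpin was found in 952 of 1894 counted genes with a sequence and in 82 of 327 detected genes, those with at least 10 counts in both libraries.

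**Figure D1:**
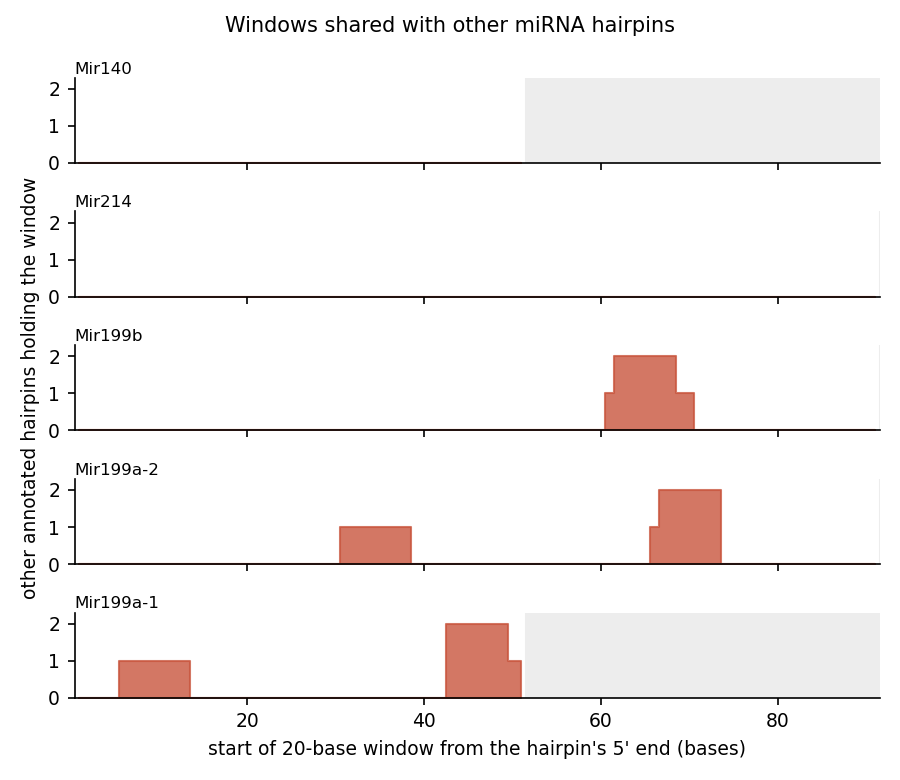
Number of other annotated miRNA hairpins (vertical axis) that hold each window of 20 bases, by the start of the window from the 5′ end of the hairpin (horizontal axis, bases), with grey where a shorter hairpin has no window. Mir140 and Mir214 stay at 0, Mir199b is shared on 1 side of the hairpin, and both Mir199a hairpins are shared on 2 sides, with up to 2 other hairpins.

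Each Mir199 gene lies opposite a dynamin gene. On GRCm38 (mm10), Mir199a-2 (ENSMUSG00000070126.1) lies on chromosome 1 at 162217814 to 162217923 on the plus strand. Mir214 (ENSMUSG00000065516.1) follows on the same strand at 162223368 to 162223477, with 5444 bases between them. Each hairpin lies whole in an exon of 2 Dnm3os transcripts, in part in exons of others (3 for Mir199a-2 and 1 for Mir214), and in introns of 4 coding transcripts of Dnm3 on the opposite strand. Mir199b (ENSMUSG00000092807.1, chromosome 2, 32318460 to 32318569, plus strand) lies opposite introns of Dnm1. Mir199a-1 (ENSMUSG00000065547.1, chromosome 9, 21496495 to 21496564, minus strand) lies opposite introns of Dnm2. Mir140 (ENSMUSG00000065439.1, chromosome 8, 107551244 to 107551313, plus strand) lies on the strand of the ubiquitin ligase gene Wwp2, in introns of 3 coding transcripts and in an exon of 1 retained-intron transcript.

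The promoter window of Dnm3os is shown here because both Mir199a-2 and Mir214 are processed from Dnm3os. Whether a single transcript holds both hairpins, or other starts are used in the heart, was not examined. The RefSeq window runs from 250 bases before to 50 bases after the Dnm3os start, at chr1:162217373-162217672 on the plus strand of GRCm38.p6. Capitals mark matches of the E-box letters CANNTG and a CArG box. The CArG box is the site class of the serum response factor, and E-boxes are bound by factors of the Twist1 class. The motifs were chosen after the sequence was read.
Dnm3os: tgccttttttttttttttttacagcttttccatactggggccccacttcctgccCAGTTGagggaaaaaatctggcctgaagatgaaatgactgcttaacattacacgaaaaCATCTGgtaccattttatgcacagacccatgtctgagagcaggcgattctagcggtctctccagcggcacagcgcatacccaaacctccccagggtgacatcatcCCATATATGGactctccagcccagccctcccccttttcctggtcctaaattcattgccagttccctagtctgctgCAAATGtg
CANNTG, which reads alike on both strands, matched at 3 places, 196 and 138 bases before the start and once after it, and 72.3% of 32851 promoter windows of this length hold it. The match 138 bases before the start reads CATCTG, which, on either strand, is in 17.2% of the windows. The CArG box started 33 bases before it, and 1.63% of the windows hold one. The motifs did not overlap. A match of letters is no evidence of binding, which these data did not measure.

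Mir140 and Mir214 had by far the most counts of the 5 genes, and the order of the levels was Mir140, Mir214, Mir199b, Mir199a-2 and Mir199a-1. Mir140, the cartilage miRNA, had 9735 and 29001 counts in replicates 1 and 2. That is 2830 CPM (exact binomial 95% interval 2774 to 2887) and 4972 CPM (4915 to 5029), with a mean of 3901 ± 1514 CPM (n = 2), rank 34 of the 1973 genes. Replicate 2 was the higher library, by 1.76-fold on the CPM scale.

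Mir214 had 8035 and 20627 counts, or 2336 CPM (2285 to 2388) and 3536 CPM (3488 to 3585). Its mean of 2936 ± 849 CPM (n = 2) gave rank 41. Replicate 2 was again higher, by 1.51-fold. The levels of Mir140 and Mir214 overlapped across the libraries, since Mir214 in replicate 2 exceeded Mir140 in replicate 1. Within each library Mir140 had more counts than Mir214, at a ratio of 1.21 (exact binomial 95% interval 1.18 to 1.25) in replicate 1 and 1.41 (1.38 to 1.43) in replicate 2.

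Mir199b had 1267 and 2092 counts, which gave nearly equal levels of 368 CPM (348 to 389) and 359 CPM (343 to 374). Its mean was 364 ± 6.88 CPM (n = 2) at rank 115. Mir199a-2, the neighbour of Mir214 in Dnm3os, had 140 and 323 counts, or 40.7 CPM (34.2 to 48.0) and 55.4 CPM (49.5 to 61.8), with a mean of 48.0 ± 10.4 CPM at rank 220. Mir199a-1 had 8 and 10 counts, so that it missed the limit of detection in replicate 1. These are 2.33 CPM (1.00 to 4.58) and 1.71 CPM (0.822 to 3.15), above the 0.872 and 0.514 CPM that a count of 0 allows (3 counts). Intervals cover the counting error of reads only, and not differences between pools. The reads carry no molecular identifiers in the files used. Amplified copies thus cannot be told from separate molecules, and the intervals leave that error out. The counts of all 3 Mir199 genes can fall short of their level, because whole arms of these hairpins match elsewhere.

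**Figure D2:**
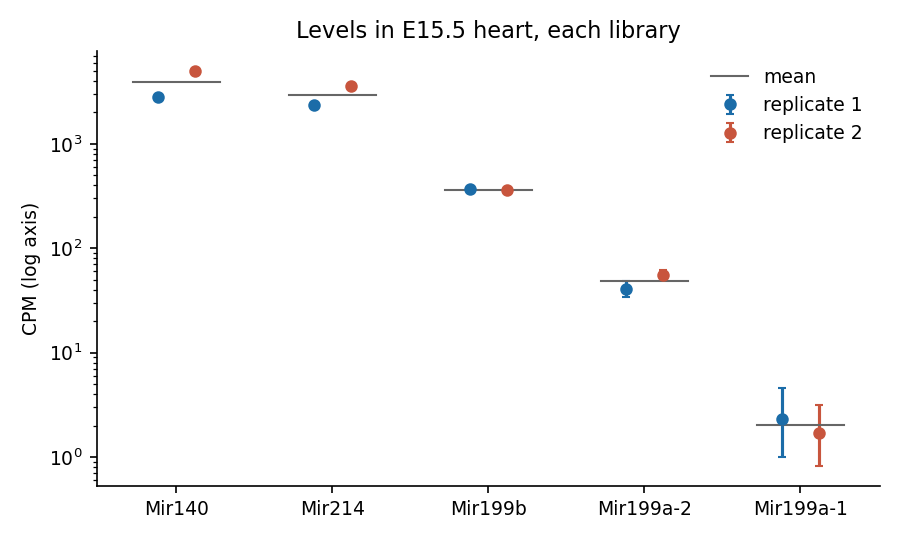
Level of each gene in CPM (vertical log axis), with 1 point per library, the exact binomial 95% interval as an error bar (smaller than the point for the higher genes) and the mean as a line. Mir140 (2830 and 4972 CPM) and Mir214 (2336 and 3536 CPM) are higher in replicate 2, Mir199b is level at 368 and 359 CPM, and Mir199a-1 has intervals that overlap between the libraries.

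The 2 miRNAs processed from Dnm3os were far apart in counts. Mir214 exceeded Mir199a-2 by 57.4-fold in replicate 1 (exact binomial 95% interval 48.6 to 68.3) and 63.9-fold in replicate 2 (57.2 to 71.5), intervals that overlap, or 5.92 ± 0.11 on the log2 scale (n = 2). This compares counts and not amounts in the tissue, as both listed arms of Mir199a-2 lie in shared sequence and those of Mir214 do not. Mir199b, which shares only its 3p side, exceeded Mir199a-2 by 9.05-fold (7.60 to 10.9) and 6.48-fold (5.76 to 7.30), and these intervals did not overlap. Against Mir214, a pair added after its values were seen, Mir199b was lower, with Mir214 at 6.34 times its counts (5.98 to 6.73) in replicate 1 and 9.86 times (9.43 to 10.3) in replicate 2. These intervals did not overlap either, and they need no scaling of the libraries. Against Mir199a-1, Mir199b was higher by 158-fold (80.1 to 368) and 209-fold (114 to 437). Between the Mir199a genes themselves, Mir199a-2 had 17.5 times (8.64 to 41.3) and 32.3 times (17.3 to 68.0) the counts of Mir199a-1. The shares of shared windows went in the reverse order of the Mir199 counts, highest in Mir199a-1 and lowest in Mir199b, as a description of 3 genes. The numbers of shared windows, 17 in Mir199a-1, 16 in Mir199a-2 and 10 in Mir199b, were nearly equal in the Mir199a genes, whose annotated hairpins have 70 and 110 bases. The part of read placement in the order of the Mir199 counts was not tested.

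Among the 327 detected genes, those with a level most like each gene were found by the Euclidean distance of log2 CPM over both libraries. Closest to Mir140 was Mir10a of the Hox clusters (2968 and 5452 CPM, 4210 ± 1757 CPM, distance 0.15), ahead of Mir106b (0.34) and Mir744 (0.36). All 3 were, like Mir140, called higher in replicate 2, but genes picked by their levels in both libraries have similar ratios by that choice. Mir214 was nearest to Mirlet7b (0.21), Mir125a (0.22) and Mir379 (0.24). For Mir199b they were Mir195a (0.045), Mir24-2 (0.055) and Mir339 (0.081), and for Mir199a-2 they were Mir377 (0.10), Mir679 (0.11) and Mir701 (0.13). Mir199b and Mir199a-2 thus had closer neighbours in level than the more abundant pair. In order of the mean, Mir140 stood between Mir10a and Mir744 (3693 ± 559 CPM), and Mir214 between Mir532 (2967 ± 79.4 CPM) and Mir130b (2933 ± 135 CPM). Mir199b stood between Mir195a (365 ± 18.1 CPM) and Mir341 (361 ± 87.6 CPM), and Mir199a-2 between Mir378c (48.8 ± 14.5 CPM) and Mir377 (47.4 ± 6.96 CPM). Such neighbours are near in mean by the way they were picked, and their order is not resolved by the SDs. With 2 libraries the distance describes level more than pattern.

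The 5 genes did not shift together between the pools. The libraries were scaled by TMM (trimmed mean of M values), and every gene whose counts summed to at least 10 was compared between them in a two-sided exact conditional binomial test, Benjamini-Hochberg adjusted over 413 genes. The test sets 2 libraries against counting noise and compares no conditions. It called 46.5% of all tested genes, 24.7% as higher in replicate 2 and 21.8% as higher in replicate 1. Of the 5 genes, 2 were called higher in replicate 2 and 1 higher in replicate 1, a share near that background. Their median log2 ratio of replicate 1 to replicate 2 was -0.27, where that of all tested genes was -0.040. Among the 182 genes with at least 1000 counts summed, to which Mir140, Mir214 and Mir199b belong, 78% were called, 38.5% as higher in replicate 2 and 39.6% as higher in replicate 1.

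Mir140 and Mir214 were called higher in replicate 2. The log2 ratio of replicate 1 to replicate 2 was -0.64 for Mir140 (exact 95% interval -0.67 to -0.61) and -0.43 for Mir214 (-0.46 to -0.39, adjusted p = 1.6e-114 by the exact test). Mir199b was called in the other direction at 0.21 (0.11 to 0.31, adjusted p = 0.000137 by the exact test), although its CPM were nearly equal, and without TMM, by total counts, it was not called at 0.039 (-0.063 to 0.14, adjusted p = 0.573 by the exact test; over the alternatives it ranged from 4.2e-06 to 0.573). The log2 ratio of Mir199a-2 was -0.27 (-0.57 to 0.019, adjusted p = 0.12 by the exact test), which is not called, and by total counts it was called at -0.44 (-0.74 to -0.15, adjusted p = 0.00488 by the exact test; over the alternatives it ranged from 0.00488 to 0.203). Its interval includes the value of Mir214. For Mir199a-1 the ratio of 0.61 had an interval from -0.93 to 2.11, so that the direction was not resolved at this depth. By total counts the median of all tested genes lay at -0.21, and 48 genes were called higher in replicate 1 and 155 higher in replicate 2, against 90 and 102 after TMM. By that scaling Mir214 and Mir140 lay at -0.60 and -0.81, below the median.

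**Figure D3:**
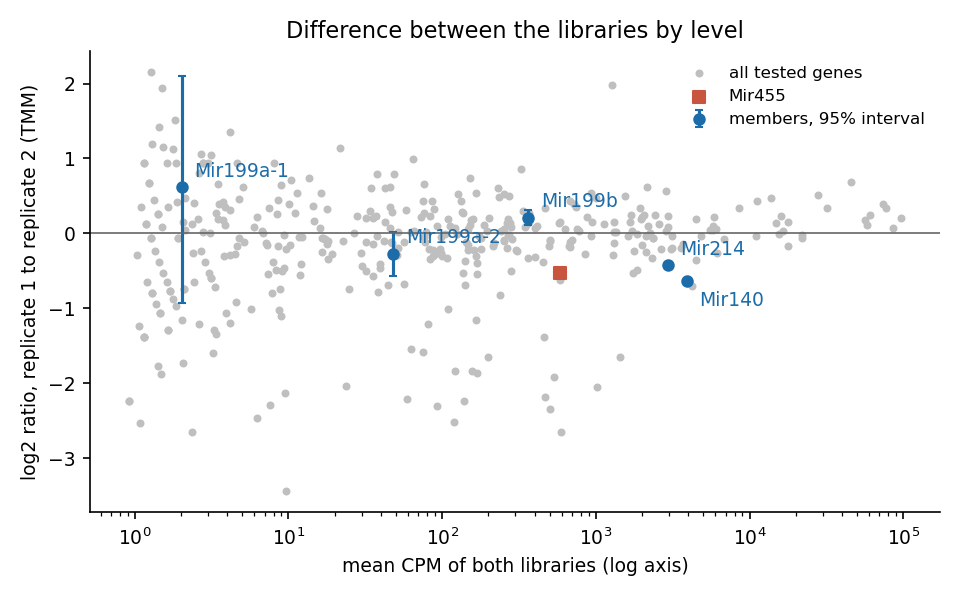
Log2 ratio of replicate 1 to replicate 2 after TMM (vertical axis) against mean CPM (horizontal log axis) for tested genes (grey; genes with 0 counts in 1 library have no finite ratio and are not drawn), with the 5 genes in blue with exact 95% intervals and Mir455 as a red square. Mir140 at -0.64, Mir214 at -0.43 and Mir455 at -0.53 lie below 0, Mir199b lies at 0.21, and the interval of Mir199a-1 spans 0. Mir675, also listed for cartilage, lies at 0.19 (not called) among the grey points.

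Beside Mir140, 2 other cartilage miRNAs were listed, and only 1 of them was called higher in replicate 2. That was Mir455, hosted in the collagen gene Col27a1. It had 441 and 720 CPM (580 ± 197 CPM, n = 2), a log2 ratio of -0.53 (exact 95% interval -0.62 to -0.45, called). The ratio of Mir140 to Mir455 was 6.41 (6.07 to 6.77) in replicate 1 and 6.91 (6.69 to 7.14) in replicate 2. These intervals overlap only at their ends, which does not show equal ratios, and a difference was not tested. This pair was set side by side after its values were seen. Mir675, a product of H19 that is also known from cartilage, had 110 and 108 CPM and was not called (log2 ratio 0.19), while with DESeq2 size factors it was called higher in replicate 1 (0.23). Of these 2 cartilage genes, 1 was called higher in replicate 2 and 0 higher in replicate 1.

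Other miRNAs of mesenchyme and fibroblasts were not called higher in replicate 2 as Mir140 and Mir214 were. Of 7 measured genes 6 were tested, 4 were called higher in replicate 1 and 0 higher in replicate 2, with a median log2 ratio of 0.21. Of all tested genes, 21.8% were called higher in replicate 1 and 24.7% higher in replicate 2. These shares were 39.6% and 38.5% among genes with at least 1000 counts summed. Mir199b of the 5 genes lay at 0.21 as well, so the list differed from Mir140 and Mir214 but not from Mir199b. After TMM the list gave 4 and 0 calls. By total counts the calls were 3 and 0, with a median of 0.038. Mir21a, a fibrosis-associated miRNA, had 16312 and 15722 CPM, and Mir22, which is abundant in muscle too, had 9044 and 8024 CPM. Mir29a and Mir29c, of the family that lowers collagen output, had 243 and 264 CPM and 81.4 and 67.7 CPM. Of these, Mir21a (0.23), Mir22 (0.35), Mir29c (0.44) and Mir152 (0.19) were called. In smooth muscle, Mir143 and Mir145a were both called higher in replicate 1, at log2 ratios of 0.073 and 0.48, but by total counts Mir143 was called higher in replicate 2 (-0.10).

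Markers of other tissues also differed between the libraries. Over all tested genes, 24.7% were called higher in replicate 2 and 21.8% higher in replicate 1. Among genes with at least 1000 counts summed, these shares were 38.5% and 39.6%. Heart muscle markers were present in both, with list sums of 62461 and 45595 CPM in replicates 1 and 2. Of 5 tested genes, 3 were called higher in replicate 1 and 0 higher in replicate 2. The 3 called were Mir208a (5972 and 5801 CPM), Mir208b (53878 and 37837 CPM) and Mir499 (2492 and 1829 CPM). None of the 7 measured genes was at 0 counts. Only 4 of the 7 were detected, as Mir1a-1, Mir133a-1 and Mir133a-2 had between 1 and 7 counts per library. Whether reads of these genes match several places was not examined, and such reads are in no gene count. Their low counts thus need not mean low levels. Mir126a of endothelium had 79217 and 67775 CPM and was called higher in replicate 1. The epithelium list summed to 1821 and 6297 CPM, with 7 of 7 genes called higher in replicate 2 and none at 0 counts. The Hox cluster list, of trunk tissue, summed to 4514 and 8076 CPM. Of its 5 tested genes (6 measured), 5 were called in the same direction, and Mir196a-1 was at 0. The neural list summed to 158 and 573 CPM, with 3 of 4 tested genes (8 measured) called higher in replicate 2. Mir122 of liver had 87.2 and 309 CPM. Of the neural list, Mir124a-1, Mir124a-2, Mir124a-3 and Mir9-2 were at 0. Since multiply matching reads are not counted, counts of 0 in the Hox and neural lists need not mean absence. The leukocyte list summed to 480 and 702 CPM, with 2 of 3 genes called higher in replicate 2, and Mir206 of skeletal muscle (73.3 and 102 CPM) was called so too. The epithelium, Hox, neural, liver and leukocyte values were thus higher in replicate 2, as Mir140 and Mir214 were. The erythroid sum of 2457 and 1095 CPM was higher in replicate 1 through Mir451a (1975 and 564 CPM, called). Of the other erythroid genes, Mir486 (80.8 and 110 CPM) was called higher in replicate 2, and Mir144 (401 and 422 CPM) was not called. With DESeq2 size factors Mir144 was called higher in replicate 1 (log2 ratio 0.14), and Mir486 was not called (-0.23). The 5 genes themselves summed to 5578 and 8924 CPM, or 0.558% and 0.892% of all counts. The part of other tissue in the higher Mir140 and Mir214 of replicate 2 was not tested. In whole hearts, more cells of a type and more miRNA per cell cannot be told apart.

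**Figure D4:**
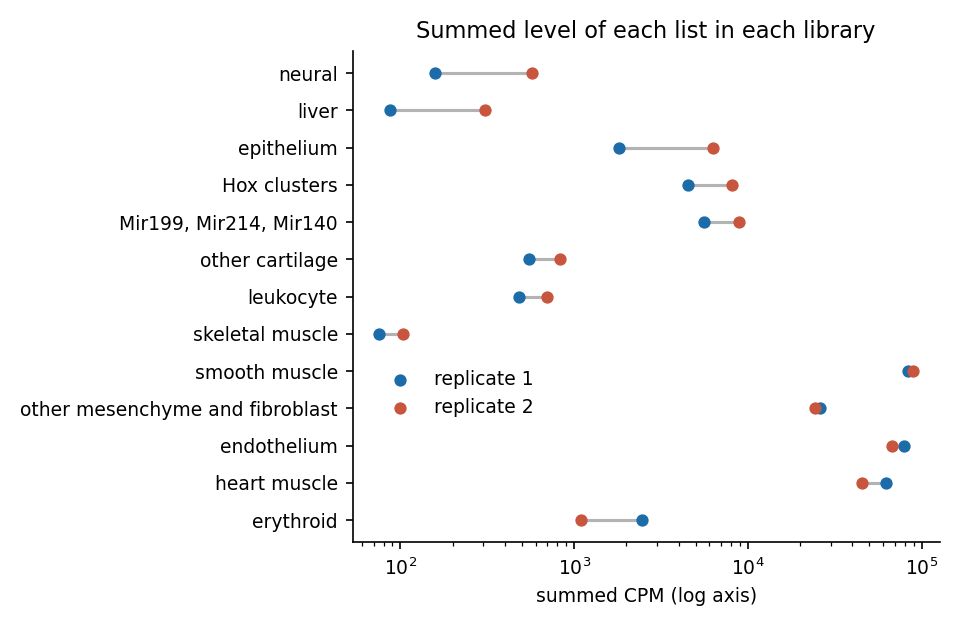
Summed CPM (horizontal log axis) of each list of marker miRNAs in replicate 1 (blue) and replicate 2 (red), ordered by the ratio of the libraries. The 5 genes (5578 and 8924 CPM) lie on the side higher in replicate 2. Their neighbours there are the other cartilage genes (551 and 828 CPM) and the Hox clusters (4514 and 8076 CPM). The other mesenchyme and fibroblast genes (25843 and 24239 CPM) lie on the side of heart muscle.

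Within the 5 genes the shares of counts shifted with these differences. Mir140 made up 50.7% of their summed counts in replicate 1 and 55.7% in replicate 2, Mir214 41.9% and 39.6%, and Mir199b 6.60% and 4.02%. Mir199a-2 and Mir199a-1 made up under 1% each in both libraries. The opposite strand of the 5 hairpins was almost empty, with 0 counts in replicate 1 for all 5 genes. In replicate 2, Mir214, Mir199b and Mir199a-1 had 0 counts there, Mir140 had 2 and Mir199a-2 had 4.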

How the data were processed

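Small RNA libraries of 2 pools of day 15.5 hearts were analysed from 1 deposited count file each. Per the file headers and the text files deposited with them, reads were placed on mm10 and counted on GENCODE M4. No label or header read for the text names the aligner, trimming or counter. The values deposited by the authors are whole read counts per miRNA gene on either strand, the gene's strand (used here) and the opposite strand. Lines that name no gene stayed out of totals (unmapped reads 13.1% and 15.1%, multiply matching 33.0% and 30.1%, no gene 5.11% and 5.07%). Hairpins are not split into arms.

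Symbols, positions and hairpins came from GENCODE M21 (1894 of 1973 IDs matched), printed sequences from RefSeq (GRCm38.p6). Shared windows were searched on both strands of 2202 annotated hairpins and not in the genome. Levels are CPM. TMM factors were 0.942 and 1.06 (edgeR 4.0.16, R 4.3.3), and alternatives used total counts and DESeq2 1.42.0 size factors. Exact tests used scipy 1.17.1 under Python 3.11.15, with an adjusted threshold of 0.05 and 95% intervals. On simulated counts over 413 genes, the test recovered 61.7% of genes changed by 0.5 and 80.2% of those changed by 1 on the log2 scale. For genes with at least 1000 counts summed it recovered 100% of both, and it called 1.41% of all unchanged genes. The simulation held counting noise only, without other differences between pools and without TMM.

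The named genes are the 5 genes, the 3 most alike in level to each detected one, its neighbours in rank, and 12 marker lists (51 symbols, 49 matched; Mir1a-2 and Mir9-1 were not analysed here). Genes and lists were chosen with earlier results of these data known.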

Additional observations from a re-analysis of the deposited data

Results flagged for a closer look

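The opposite strand of Mir199a-2 held 4 counts in replicate 2, above the 3 counts that a count of 0 allows, and 0 in replicate 1. It was singled out because the levels reported use the gene's strand alone.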

How the results depend on the processing

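Alternatives were other scalings of the libraries, counts on either strand, other filters on low counts and other lengths of the shared stretch. Of 53 values, 48 kept their direction and call or moved by less than 1 SD, or, for counts, by no more than 1.5 times. Of the 53, 0 reversed. Some of these could hardly change and are no evidence of stability. With the opposite strand almost empty, counts on either strand left the ratios between genes nearly as they were. Scaling was taken over all counted genes, so removing the filter changed only the adjusted p of a gene's ratio between the libraries. The ratio of Mir199b between the libraries lost its call by total counts (0.039), and that of Mir199a-2 gained one (-0.44). By total counts 48 genes were called higher in replicate 1 and 155 higher in replicate 2. Ratios of the marker genes between the libraries are not among the 53 values. Of these markers, Mir143 was called in opposite directions, at 0.073 after TMM and -0.10 by total counts. Mir144, Mir152, Mir486 and Mir675 gained or lost a call with another scaling. With counts on either strand the mean of Mir199b was 344 CPM, outside its small SD; the denominator then includes the opposite strand. With 2 libraries, a value without 1 replicate is that of the other library and always lies within 1 SD of the mean, so it tests nothing. Mir140 then ranged from 2830 to 4972 CPM, Mir214 from 2336 to 3536, Mir199b from 359 to 368, Mir199a-2 from 40.7 to 55.4 and Mir199a-1 from 1.71 to 2.33. The depth limits Mir199a-1, with 8 and 10 counts. No paired analysis was possible because there is only 1 group.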
